A study of Rattus norvegicus with 30 samples.

Results

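The 8 genes described here encode rat topoisomerase I (Top1) and 7 proteins that repair the lesions made when the enzyme is trapped on DNA: Tdp1, Tdp2, Parp1, Xrcc1, Lig3, Ercc1 and Mus81. They were chosen by name from the biochemistry of the drug target, with earlier results of these data known. Each was found through the platform annotation as a probe set with exactly 1 gene symbol, and all 8 of the 14217 genes so named were present, with 10 of the 31042 probe sets tested. Top1 and Lig3 have 2 probe sets each and the others 1, and each gene is represented by the probe set with the highest mean over all arrays.

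Topoisomerase I relieves the twist that builds up ahead of replication and transcription by cutting 1 strand of DNA, staying covalently bound to the cut end, and sealing it again. Irinotecan is a prodrug of SN-38, a camptothecin that holds the enzyme in the bound state, so that a moving fork or polymerase can turn the complex into a DNA break. Tdp1 cleaves the bond between the enzyme's tyrosine and the DNA 3′ end, Parp1 senses the break, the scaffold Xrcc1 and DNA ligase 3 close it, and the nucleases of Ercc1 and Mus81 can cut the lesion out along another route. Intestinal injury and diarrhoea are known side effects of the drug.

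The study used female DA rats aged 10 weeks. Rats received 1 intraperitoneal dose of irinotecan at 200 mg/kg under light halothane anaesthesia and were killed 1, 6, 24 or 72 h later, and an undosed group was killed at 0 h, for which an anaesthetic or sham injection is not described. Stomach, jejunum and colon were taken whole from 6 rats per time, the RNA of 3 rats was pooled for each array, and every one of the 15 tissue and time groups has 2 arrays, so 30 arrays were hybridised to a whole-genome Affymetrix rat array, on which most genes have 1 or more probe sets whose levels are not comparable with one another. The values are log2 signals, in which a difference of 1 is a doubling. A change is called where limma's adjusted p is under 0.05, and p-values here measure the spread between pools of rats, not between animals. The number of arrays limits the precision.

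The tissue labels went with the medians of their defining markers. The parietal cell gene Atp4a had a median of 13.0 over the stomach arrays, 6.98 over the jejunum and 6.83 over the colon, Apoa4 a median of 13.8 in jejunum against 6.93 in stomach and 7.08 in colon, and Car1 a median of 12.7 in colon against 6.51 and 6.44 in stomach and jejunum. Single arrays lay far from these medians, with Atp4a up to 9.41 in colon and Apoa4 up to 10.3 in colon and 9.62 in stomach. Colon 24 h replicate 1 had a gastric gland median of 9.41, and colon 24 h replicate 2 an enterocyte median of 10.3. Neither array is among those said below to stand apart. Array medians lay between 6.965 and 7.055 and replicate arrays correlated at r = 0.9469 to 0.9959. Of the 30 arrays 5 stood apart by RNA quality or acinar genes. Stomach 24 h replicate 1 and jejunum 24 h replicate 1 had a gap between 3′ and 5′ GAPDH probe sets of 0.557 and 0.816 log2, a sign of RNA quality, and stomach 72 h replicate 1, colon 6 h replicate 1 and colon 72 h replicate 2 had a raised median of 10 pancreatic acinar genes (13.5, 9.29 and 12.3 log2).

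By the probe sets used here, Parp1 and Tdp1 were the only ones of the 8 genes to pass the test against undosed tissue, in the jejunum; a dimmer probe set of Lig3 also passed there at 72 h. Jejunal Parp1 fell 1.31-fold at 6 h and rose 1.46-fold at 72 h, and jejunal Tdp1 rose 1.28-fold at 72 h. The Parp1 call at 72 h held without each of its arrays. The calls of Parp1 at 6 h and of Tdp1 at 72 h were lost without single arrays, as given below. Top1, the target of the drug, was not called by the probe set used here in any of the 12 comparisons with 0 h. Of the 96 pairs of a gene and a comparison 3 were called, and 9 had an unadjusted p under 0.05. The calls fell in jejunum at 6 and 72 h, where 3.49% and 23.9% of all probe sets were called. In each of the 12 comparisons, between 1467 and 12394 of the 31042 probe sets had an unadjusted p under 0.05.

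**Figure D1:**
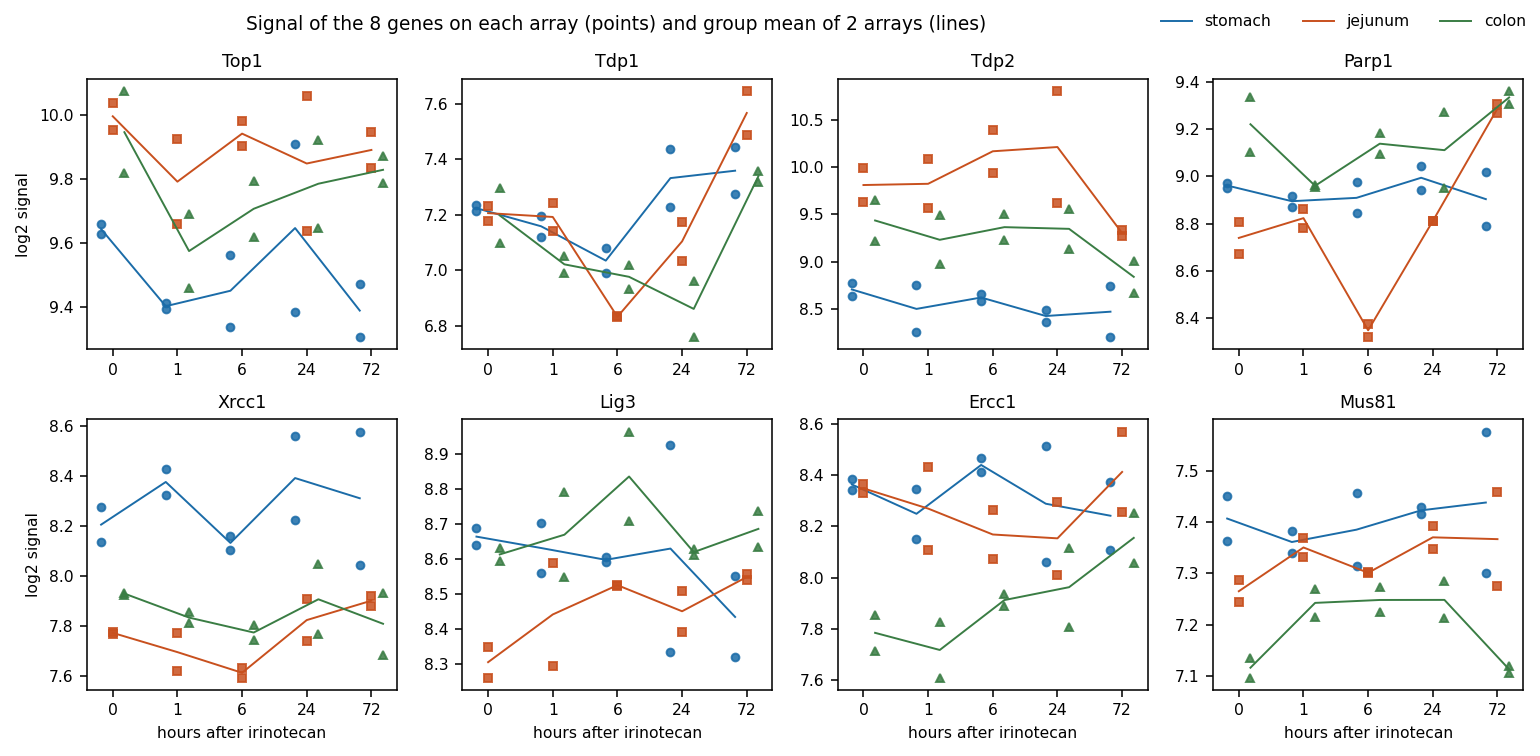
Log2 signal (vertical axes, a scale of its own per gene) of each of the 8 genes against hours after irinotecan, with points for the 2 arrays of a group and lines through the group means; blue circles are stomach, orange squares jejunum and green triangles colon. Jejunal Parp1 lies at 8.32 and 8.38 at 6 h and at 9.31 and 9.27 at 72 h, outside its 0 h arrays at 8.81 and 8.67.

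**Figure D2:**
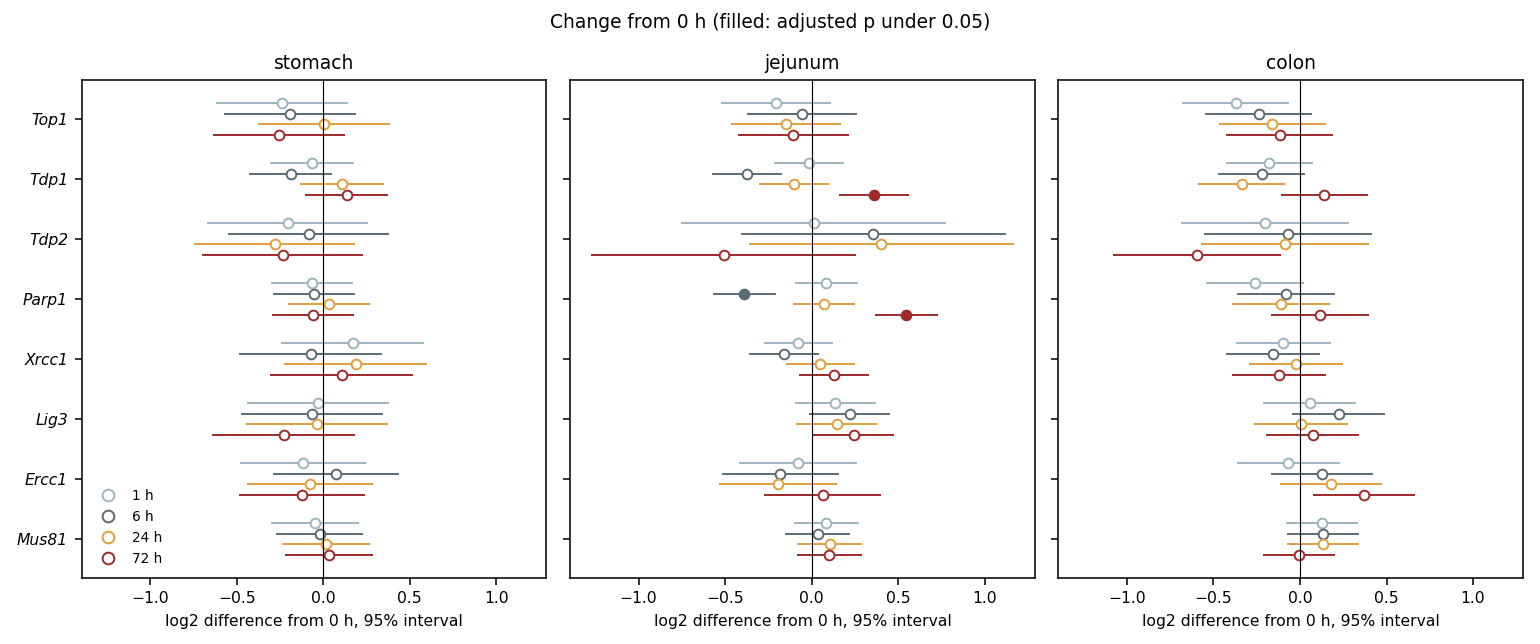
Log2 difference from 0 h (horizontal axis) with its 95% interval for each gene at 1, 6, 24 and 72 h in the 3 tissues, from limma. Filled points mark the 3 calls, Parp1 at 6 and 72 h and Tdp1 at 72 h in jejunum; open points did not pass.

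Upstream sequence is shown for the 2 genes that rose in the jejunum at 72 h and for the drug target. The lines give the 250 bases before the annotated start of each gene, on the plus strand, from RefSeq's table for build GRCr8, at chr13:94839234-94839483 for Parp1, chr6:124892571-124892820 for Tdp1 and chr3:169712945-169713194 for Top1. Capitals mark matches, on either strand, to the letters searched.
Parp1: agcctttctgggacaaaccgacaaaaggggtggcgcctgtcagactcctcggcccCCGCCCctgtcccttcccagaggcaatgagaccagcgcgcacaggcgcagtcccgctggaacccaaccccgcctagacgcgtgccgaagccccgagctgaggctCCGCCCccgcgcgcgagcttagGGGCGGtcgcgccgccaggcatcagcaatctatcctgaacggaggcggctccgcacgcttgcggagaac
Tdp1: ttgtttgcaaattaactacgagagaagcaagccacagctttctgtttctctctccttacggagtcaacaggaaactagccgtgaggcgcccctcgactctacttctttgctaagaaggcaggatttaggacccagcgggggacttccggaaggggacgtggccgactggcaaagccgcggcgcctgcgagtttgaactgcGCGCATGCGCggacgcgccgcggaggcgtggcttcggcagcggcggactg
Top1: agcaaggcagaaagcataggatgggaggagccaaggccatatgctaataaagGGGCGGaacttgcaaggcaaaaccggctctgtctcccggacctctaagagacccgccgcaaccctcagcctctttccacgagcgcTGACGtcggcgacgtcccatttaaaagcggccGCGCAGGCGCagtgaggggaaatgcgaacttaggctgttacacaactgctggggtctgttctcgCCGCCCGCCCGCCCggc
The letters searched were GGGCGG (GC box), the NRF1 consensus with 1 free base, TGACG (the core of a cyclic AMP response element, CRE), CCAAT, and the E2F forms TTTGGCGC, TTTCCCGC and TTTCGCGC. Parp1 holds 3 GC boxes, Tdp1 holds 1 NRF1 match, and Top1 holds 4 GC boxes, 3 of which overlap one another, with 1 NRF1 match and 1 CRE core. Of all 33464 promoter windows of this length, 30.5% hold a GC box, 3.75% the NRF1 consensus and 18.2% the CRE core. Neither CCAAT nor an E2F form is found in these 3 windows, against 34.0% of all windows for CCAAT and 0.412%, 0.813% and 0.248% for the E2F forms in the order given. A match is a description of the letters.

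Top1 itself was measured brightly, with a mean of 9.72 over the 30 arrays for probe set 1399046_at, against a median of 7.03 for all probe sets. In the jejunum its arrays read 10.04 and 9.95 at 0 h, 9.66 and 9.92 at 1 h, 9.98 and 9.90 at 6 h, 10.06 and 9.64 at 24 h, and 9.84 and 9.95 at 72 h. The groups at 6 and 24 h overlapped that at 0 h, and those at 1 and 72 h lay under it. The 4 jejunal differences from 0 h ran from −0.20 to −0.05, with interval bounds from −0.52 to 0.26, and the smallest adjusted p was 0.601.

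In the stomach Top1 read 9.66 and 9.63 at 0 h, 9.41 and 9.39 at 1 h, 9.34 and 9.56 at 6 h, 9.91 and 9.39 at 24 h, and 9.47 and 9.31 at 72 h. The arrays at 1, 6 and 72 h all lay under those at 0 h, while those at 24 h fell on either side of them. The differences ran from −0.25 to 0.0031 (interval bounds −0.64 to 0.38), and the smallest adjusted p was 0.700. In the colon the arrays read 10.08 and 9.82 at 0 h, 9.46 and 9.69 at 1 h, 9.62 and 9.80 at 6 h, 9.92 and 9.65 at 24 h, and 9.87 and 9.79 at 72 h. The 1 h arrays lay under both untreated ones, with a difference of −0.37 ± 0.14 (SE; interval −0.68 to −0.06) and an adjusted p of 0.300, so it was not called; over the whole array 0 probe sets were called in colon at 1 h although 4624 had an unadjusted p under 0.05.

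Undosed Top1 was not called between tissues by its brighter probe set. It lay 0.35 log2 higher in jejunum than in stomach (adjusted p = 0.103) and 0.30 higher in colon than in stomach (adjusted p = 0.155), and jejunum and colon were 0.05 apart (adjusted p = 0.818). From low to high the order was stomach, colon, jejunum, and no neighbours in it passed the test.

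The second Top1 probe set, 1369421_at, is dimmer, with a mean of 7.68, and gave another pattern. In the jejunum it read 7.97 and 7.55 at 0 h, 7.53 and 7.47 at 1 h, 7.82 and 7.94 at 6 h, 7.45 and 8.08 at 24 h, and 8.23 and 8.32 at 72 h. In the colon it read 7.98 and 8.07 at 0 h, 7.76 and 7.69 at 1 h, 7.82 and 7.88 at 6 h, 7.81 and 7.85 at 24 h, and 8.57 and 8.17 at 72 h. In both tissues the 72 h arrays were the highest of the tissue, and in the colon they were 0.55 above 24 h (adjusted p = 0.0359). Against 0 h the jejunal difference of 0.52 was not called (adjusted p = 0.083). In untreated tissue this probe set was 0.68 higher in colon than in stomach (adjusted p = 0.00469).

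Over the 15 group means, each taken relative to its tissue, the 2 Top1 probe sets correlated at r = 0.367, given as a description over points that share arrays. On the arrays with raised GAPDH gaps they moved in opposite directions: in stomach at 24 h the brighter set was higher on replicate 1 (9.91 against 9.39) and the dimmer one lower (7.04 against 7.31), and in jejunum at 24 h the same held (10.06 against 9.64, and 7.45 against 8.08). The part of RNA quality in the disagreement was not tested.

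**Figure D3:**
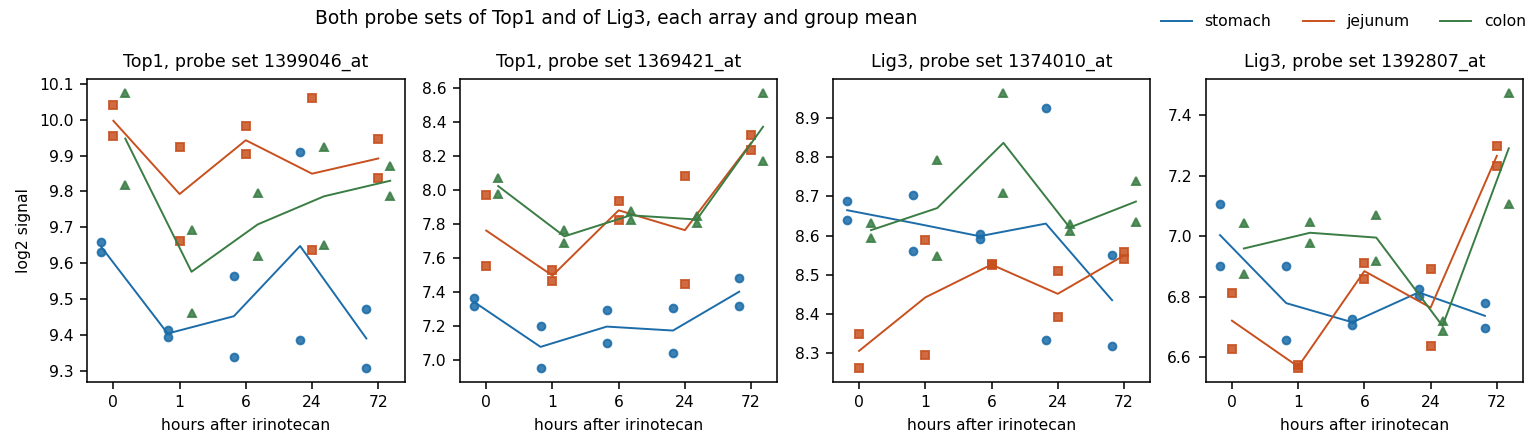
Log2 signal of the 2 probe sets of Top1 and of Lig3 against hours after irinotecan; points are arrays, lines group means, with blue circles for stomach, orange squares for jejunum and green triangles for colon. The dimmer Top1 set reaches 8.23 and 8.32 in jejunum at 72 h, where the brighter set stays at 9.84 and 9.95.

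Tdp1 frees DNA 3′ ends from a trapped topoisomerase I. In the jejunum it read 7.23 and 7.18 at 0 h, 7.24 and 7.14 at 1 h, 6.83 and 6.83 at 6 h, 7.03 and 7.17 at 24 h, and 7.64 and 7.49 at 72 h. The 6 h arrays were the lowest and the 72 h arrays the highest, and neither overlapped those at 0 h. At 72 h Tdp1 was 0.36 ± 0.089 (SE) above 0 h (adjusted p = 0.0217), and 0.46 above 24 h (adjusted p = 0.0115), a call lost without 72 h replicate 1 (0.38, adjusted p = 0.0944). At 6 h the difference of −0.37 had an adjusted p of 0.0567 and was not called. It passed with dim probe sets left out, with 1 fit of all 30 arrays, with array weights, with the 5 arrays that stood apart left out and with the mean of each gene's probe sets (adjusted p = 0.0468, 0.0444, 0.00739, 0.0151 and 0.0384), and had an adjusted p of 0.209 to 0.299 without each of its 4 arrays. Over the 5 times of the jejunum Tdp1 gave F = 17.4 (adjusted p = 0.0068). The rise of Tdp1 from 0 to 72 h lost its call without 0 h replicate 1, 0 h replicate 2 or 72 h replicate 1 (adjusted p = 0.0764, 0.119 and 0.141).

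In the colon Tdp1 read 7.10 and 7.30 at 0 h, 7.05 and 6.99 at 1 h, 6.93 and 7.02 at 6 h, 6.76 and 6.96 at 24 h, and 7.32 and 7.36 at 72 h. The 24 h arrays were the lowest group and those at 72 h the highest. At 24 h replicate 1 had a raised gastric gland median and replicate 2 a raised enterocyte median, and the part of this was not tested. Against 0 h no time was called (−0.34 at 24 h, adjusted p = 0.181), but 72 h was 0.48 above 24 h (adjusted p = 0.035). That call was lost without colon 24 h replicate 1, 72 h replicate 1 or 72 h replicate 2 (adjusted p = 0.201, 0.110 and 0.0913), and the last of these is an array with a raised acinar median. In the stomach Tdp1 read 7.21 and 7.23 at 0 h, 7.20 and 7.12 at 1 h, 6.99 and 7.08 at 6 h, 7.23 and 7.44 at 24 h, and 7.44 and 7.27 at 72 h, and the differences from 0 h ran from −0.19 to 0.14 with no call.

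Tdp2 acts on 5′ ends and is known mostly for lesions of topoisomerase II. It showed the largest untreated tissue difference of the 8 genes. At 0 h it read 8.78 and 8.64 in stomach, 9.63 and 10.00 in jejunum, and 9.66 and 9.22 in colon. Both intestinal tissues lay above the stomach without overlap, and jejunum exceeded stomach by 1.10 ± 0.30 (SE; 2.15-fold, adjusted p = 0.00869), a call that was lost without stomach 0 h replicate 2 or jejunum 0 h replicate 2 (adjusted p = 0.0588 and 0.0922).

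After the drug, jejunal Tdp2 read 9.57 and 10.08 at 1 h, 10.40 and 9.94 at 6 h, 10.80 and 9.62 at 24 h, and 9.27 and 9.34 at 72 h. The 72 h arrays were the lowest and the 24 h arrays were far apart, the higher being the array with the GAPDH gap of 0.816. The 72 h group was −0.91 from 24 h (adjusted p = 0.107) and −0.51 from 0 h (adjusted p = 0.289), so neither was called. The difference from 24 h was −0.32 without 24 h replicate 1 (adjusted p = 0.343) and −1.50 without 24 h replicate 2 (adjusted p = 0.000604). Without 24 h replicate 2, which leaves the array with the raised gap alone, the 24 h group was 0.99 above 0 h (adjusted p = 0.0120). With the 5 arrays that stood apart left out, the jejunal difference of −0.51 at 72 h had an adjusted p of 0.0458.

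Colonic Tdp2 read 8.97 and 9.49 at 1 h, 9.23 and 9.50 at 6 h, 9.56 and 9.14 at 24 h, and 8.67 and 9.01 at 72 h, and at 72 h it was −0.60 from 0 h (adjusted p = 0.200). In the stomach the arrays after dosing lay between 8.20 and 8.75, with differences from 0 h of −0.28 to −0.09. No Tdp2 change was called in either tissue.

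Parp1, the poly(ADP-ribose) polymerase that senses strand breaks and recruits the repair proteins, had the smallest adjusted p of the 8 genes. In the jejunum it read 8.81 and 8.67 at 0 h, 8.78 and 8.86 at 1 h, 8.32 and 8.38 at 6 h, 8.81 and 8.81 at 24 h, and 9.31 and 9.27 at 72 h. The 6 h arrays lay below and the 72 h arrays above the arrays of the other 3 jejunal groups. Parp1 was −0.39 ± 0.081 (SE; interval −0.57 to −0.21) at 6 h (adjusted p = 0.0351) and 0.55 ± 0.081 (interval 0.37 to 0.73) at 72 h (adjusted p = 0.00305), and it was 0.48 higher at 72 h than at 24 h (adjusted p = 0.00712), a call lost without 72 h replicate 1 (0.45, adjusted p = 0.0624). Over the 5 times it gave F = 34.2 (adjusted p = 0.0019). The 6 h call was lost without any of its 4 arrays, jejunum 0 h replicates 1 and 2 (adjusted p = 0.234 and 0.108) and 6 h replicates 1 and 2 (0.260 and 0.168), with values of −0.32 to −0.46, and with trend and robust variances (adjusted p = 0.0633). The 72 h call held without each of its 4 arrays (0.48 to 0.62, adjusted p 0.0143 to 0.0367).

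In the stomach Parp1 arrays read 8.95 and 8.97 at 0 h, 8.92 and 8.87 at 1 h, 8.84 and 8.97 at 6 h, 9.04 and 8.94 at 24 h, and 9.02 and 8.79 at 72 h, and in the colon 9.10 and 9.34, 8.96 and 8.96, 9.09 and 9.18, 8.95 and 9.27, and 9.36 and 9.31 at the same times. Neither tissue shows groups that leave the range of the others at 6 h, and the stomach differences ran from −0.07 to 0.03 and the colonic ones from −0.26 to 0.11. The response at 72 h was 0.60 ± 0.14 (SE) larger in jejunum than in stomach (limma adjusted p = 0.0304), where 2.75% of probe sets were called, and 0.43 larger than in colon (0.886% called), which was not called (adjusted p = 0.132). The test over the 3 tissues together gave F = 9.31 (adjusted p = 0.0573). Stomach 72 h replicate 1 and colon 72 h replicate 2 had raised acinar medians (13.5 and 12.3), and no values of these differences without them are given. At 6 h the jejunal response differed from the stomach by −0.34 (adjusted p = 0.384; 0.11% of probe sets called).

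The share of all probe sets called sets the background for these counts. In the jejunum 1 of the 8 genes fell at 6 h, where 1.19% of probe sets fell, 2.3% rose and 3.49% changed either way. At 72 h 2 rose, where 11.9% rose and 23.9% changed, and 2 rose from 24 to 72 h, where 8.77% rose and 12.9% changed. In the colon 1 rose from 24 to 72 h, where 4.4% rose and 6.73% changed. Over the 5 times together 2 of the 8 genes changed in the jejunum against 19.2% of probe sets. With 8 genes, nothing particular to the group is read from these counts. The median difference of the 8 genes was −0.11 at 6 h and 0.12 at 72 h, beside −0.02 and −0.07 for all probe sets.

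In the comparisons with no call among the 8 genes the share of all probe sets called was 0.0161%, 0.0322%, 0.0161% and 0.00644% in stomach at 1, 6, 24 and 72 h, 0.0354% and 0.409% in jejunum at 1 and 24 h, and 0%, 1.19%, 1.14% and 1.32% in colon at the 4 times. The tests over the 5 times called 0.0387% in stomach and 4.59% in colon, and none of the 8 genes. The tests of tissue difference in the response called 0.00322%, 0.251%, 0.229% and 2.28% at 1, 6, 24 and 72 h, and again none of the 8.

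Genes of proliferating cells also moved at these times in the jejunum. Of 14 proliferation markers 9 fell at 6 h (median difference −0.65) and 12 rose at 72 h (median 0.67), and 13 rose between 24 and 72 h (median 0.90). Their median signal per array was 8.73 and 8.41 at 0 h, 7.80 and 7.79 at 6 h, and 9.35 and 9.44 at 72 h. It was also lower at 6 h in colon (8.58 and 8.74 at 0 h, 7.53 and 7.66 at 6 h). In stomach it read 8.02 and 7.92 at 0 h and 7.18 and 7.41 at 6 h, with 0 of the 14 called there. Neither Parp1 nor Tdp1 was called at 6 h in colon or stomach. In the colon 8 of the 14 fell at 24 h (median −1.21), when Parp1 there was −0.11 and Tdp1 −0.34 from 0 h, neither called. From 24 to 72 h, when colonic Tdp1 rose, 12 of the 14 rose (median 1.18), as did 2 of 5 macrophage genes. In that comparison 3 of 7 smooth muscle, 2 of 5 enterocyte, 1 of 3 colonocyte, 1 of 7 gastric gland and 1 of 5 squamous genes fell, 0 of 5 lymphocyte genes were called, and the 10 acinar genes had a median difference of 2.90 with none called. Of the other marker lists in the jejunum at 72 h, 3 of 7 smooth muscle, 2 of 5 macrophage and 1 of 5 lymphocyte genes rose, and 2 of 3 colonocyte, 2 of 10 acinar, 1 of 7 gastric gland, 1 of 5 squamous, 1 of 5 enterocyte and 1 of 5 macrophage genes fell. At 6 h 1 of 3 colonocyte genes rose and 1 of 10 acinar genes fell. Whole tissue RNA was measured, so fewer cells of a type and less RNA per cell cannot be told apart, and the part of cell composition in these results was not tested.

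**Figure D4:**
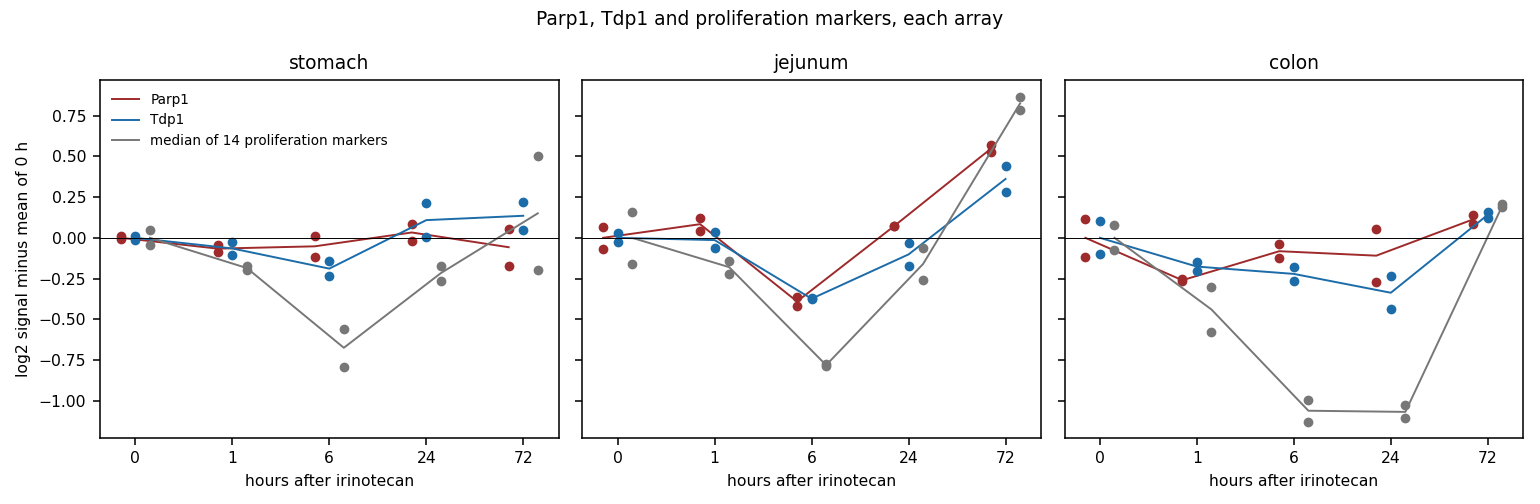
Log2 signal minus the mean of the 0 h arrays (vertical axis) against hours after irinotecan for Parp1 (red), Tdp1 (blue) and the median of 14 proliferation markers (grey), with a point per array and lines through the means. In jejunum Parp1 and Tdp1 are lowest at 6 h and highest at 72 h. In colon the markers are lowest at 6 and 24 h. There the group means of Parp1 lie within 0.26 of 0 h, and those of Tdp1 are lowest at 24 h (−0.34) and highest at 72 h (0.14).

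Xrcc1, the scaffold that brings the ligase to the break, was not called against 0 h in any tissue. Its arrays lay between 8.04 and 8.58 in stomach, 7.59 and 7.92 in jejunum, and 7.68 and 8.05 in colon. At 6 h the jejunal arrays read 7.63 and 7.59, under both 0 h arrays at 7.77 and 7.77, with a difference of −0.16 that was not called. In untreated tissue Xrcc1 was lower in jejunum than in stomach, where it read 8.13 and 8.28 (difference −0.43, adjusted p = 0.0234). That call was lost without stomach 0 h replicate 2, jejunum 0 h replicate 1 or jejunum 0 h replicate 2 (adjusted p = 0.152, 0.0910 and 0.0899) and after quantile normalization (0.0685).

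Lig3, the ligase that works with Xrcc1, depended on the probe set. With 1374010_at the jejunum read 8.35 and 8.26 at 0 h, 8.30 and 8.59 at 1 h, 8.53 and 8.52 at 6 h, 8.51 and 8.39 at 24 h, and 8.56 and 8.54 at 72 h. The arrays at 6, 24 and 72 h all lay above those at 0 h, and the difference of 0.24 at 72 h was not called (adjusted p = 0.114). With the dimmer 1392807_at they read 6.81 and 6.63 at 0 h, 6.57 and 6.56 at 1 h, 6.86 and 6.91 at 6 h, 6.64 and 6.89 at 24 h, and 7.23 and 7.30 at 72 h.

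By that dimmer set jejunal Lig3 rose by 0.55 at 72 h (adjusted p = 0.00826) and by 0.50 from 24 to 72 h (adjusted p = 0.0149), and colonic Lig3 by 0.59 from 24 to 72 h (adjusted p = 0.0297). The colon arrays read 6.68 and 6.72 at 24 h and 7.48 and 7.11 at 72 h. The response at 72 h was 0.81 larger in jejunum than in stomach (adjusted p = 0.0145), where the arrays read 7.11 and 6.90 at 0 h and 6.78 and 6.70 at 72 h. Stomach 72 h replicate 1 had a raised acinar median (13.5), and no value of this difference without it is given. The 2 Lig3 probe sets correlated at r = 0.488 over the 15 group means relative to tissue. In the stomach and colon the brighter set stayed between 8.32 and 8.96, with no call.

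Ercc1, the partner of the Xpf nuclease, and Mus81, the catalytic subunit of another structure-specific nuclease, differed between untreated tissues more than with time. Ercc1 read 8.38 and 8.34 in stomach, 8.37 and 8.33 in jejunum, and 7.71 and 7.85 in colon at 0 h. The colon lay below both others, with a difference of −0.58 from stomach (adjusted p = 0.00897) and the jejunum 0.56 above it (adjusted p = 0.00778). Colon 0 h replicate 1 was needed for both calls (adjusted p = 0.0757 and 0.0659 without it), and stomach 0 h replicate 1 for the first (0.0544). In colon Ercc1 reached 8.25 and 8.06 at 72 h, above its 0 h arrays by 0.37, which was not called (adjusted p = 0.192).

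Mus81 read 7.36 and 7.45 in stomach, 7.29 and 7.24 in jejunum, and 7.14 and 7.10 in colon at 0 h. These values fell in separate ranges, and the colon was −0.29 from the stomach (adjusted p = 0.0132), a call lost without stomach 0 h replicate 2 or colon 0 h replicate 2 (0.103 and 0.0730). After dosing the group means of Mus81 stayed within 0.13 of the 0 h mean in each tissue, with interval bounds from −0.30 to 0.34. Untreated Parp1 was −0.48 in jejunum against colon (adjusted p = 0.00104). Of the 8 genes 2 were called between jejunum and stomach, 2 between colon and stomach and 2 between jejunum and colon, where 32.2%, 33.1% and 45.7% of probe sets were called.

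Other genes of the pathway were taken from 5 lists of 37 genes, of which 32 had a probe set. In the jejunum at 72 h 13 of the 32 rose and 0 fell, beside 11.9% and 12% of all probe sets, with a list median of 0.20 against −0.07. The count fell to 6, 2, 2 and 6 without 0 h replicate 1, 0 h replicate 2, 72 h replicate 1 and 72 h replicate 2, while the probe sets called over the whole array fell from 7405 to 2582, 1692, 1723 and 3111, and it was 7 after quantile normalization.

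The partners in strand break repair accounted for 6 of these 13, out of 9 measured. Parg, which removes poly(ADP-ribose), read 7.91 and 7.97 at 0 h and 8.76 and 9.04 at 72 h, and rose by 0.96 (adjusted p = 0.00106). Adprs, which removes the last ADP-ribose from serine, rose by 0.59 (adjusted p = 0.00196). The flap endonuclease Fen1 rose by 0.52, the replicative ligase Lig1 by 0.63, the abasic site endonuclease Apex1 by 0.80 and Parp2 by 0.36.

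Of the 5 other topoisomerases 2 rose at 72 h, the mitochondrial Top1mt by 0.41 and Top2a by 0.50. Top2a, the topoisomerase II of dividing cells, had larger differences from 0 h than any of the 8 genes. Its jejunal arrays read 9.21 and 9.12 at 0 h, 8.24 and 8.41 at 6 h and 9.73 and 9.60 at 72 h, and colonic ones 9.48 and 9.60 at 0 h, 7.80 and 8.02 at 6 h, 7.99 and 8.29 at 24 h and 9.30 and 9.50 at 72 h. It fell by 0.84 in jejunum at 6 h (adjusted p = 0.0067), by 1.63 in colon at 6 h (adjusted p = 0.000568) and by 1.40 in colon at 24 h (adjusted p = 0.00256). In the colon at 24 h this call was lost without 0 h replicate 2.

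Among the nucleases 3 of 6 rose in the jejunum at 72 h. They were Rbbp8, the resection factor CtIP (0.38), Mre11 (0.31), and Ercc4, the Xpf subunit that binds Ercc1 (0.24). Ercc4 read 7.91 and 7.87 at 0 h and 8.21 and 8.25 at 6 h, and rose by 0.34 at 6 h (adjusted p = 0.0433), when Ercc1 itself was not called. Of the 8 genes that strip or degrade the trapped enzyme by SUMO, ubiquitin or protease, 2 rose at 72 h, Ddb1 (0.48) and the SUMO-targeted ubiquitin ligase Rnf4 (0.44), and Sprtn, the protease for DNA-bound proteins, was not called. None of the 4 genes of R-loop and transcription-coupled repair was called.

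At 6 h in the jejunum 1 of the 32 rose and 1 fell (Ercc4 and Top2a), beside 2.3% and 1.19% of all probe sets. Neither call held when any of the arrays was left out. With array weights the count was 10, and with the arrays that stood apart left out it was 8. Between 24 and 72 h 9 rose in jejunum, beside 8.77% of all probe sets. In colon 2 rose, Top2a (by 1.26) and Apex1 (by 0.84), beside 4.4% of all probe sets. The jejunal count was 1 and 5 without 72 h replicates 1 and 2 and 4 with array weights, and the colonic one ran from 1 without 24 h replicate 1 or 72 h replicate 1 to 5 without 24 h replicate 2. None was called in the stomach at any time, where at most 0.0322% of all probe sets were called.

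**Figure D5:**
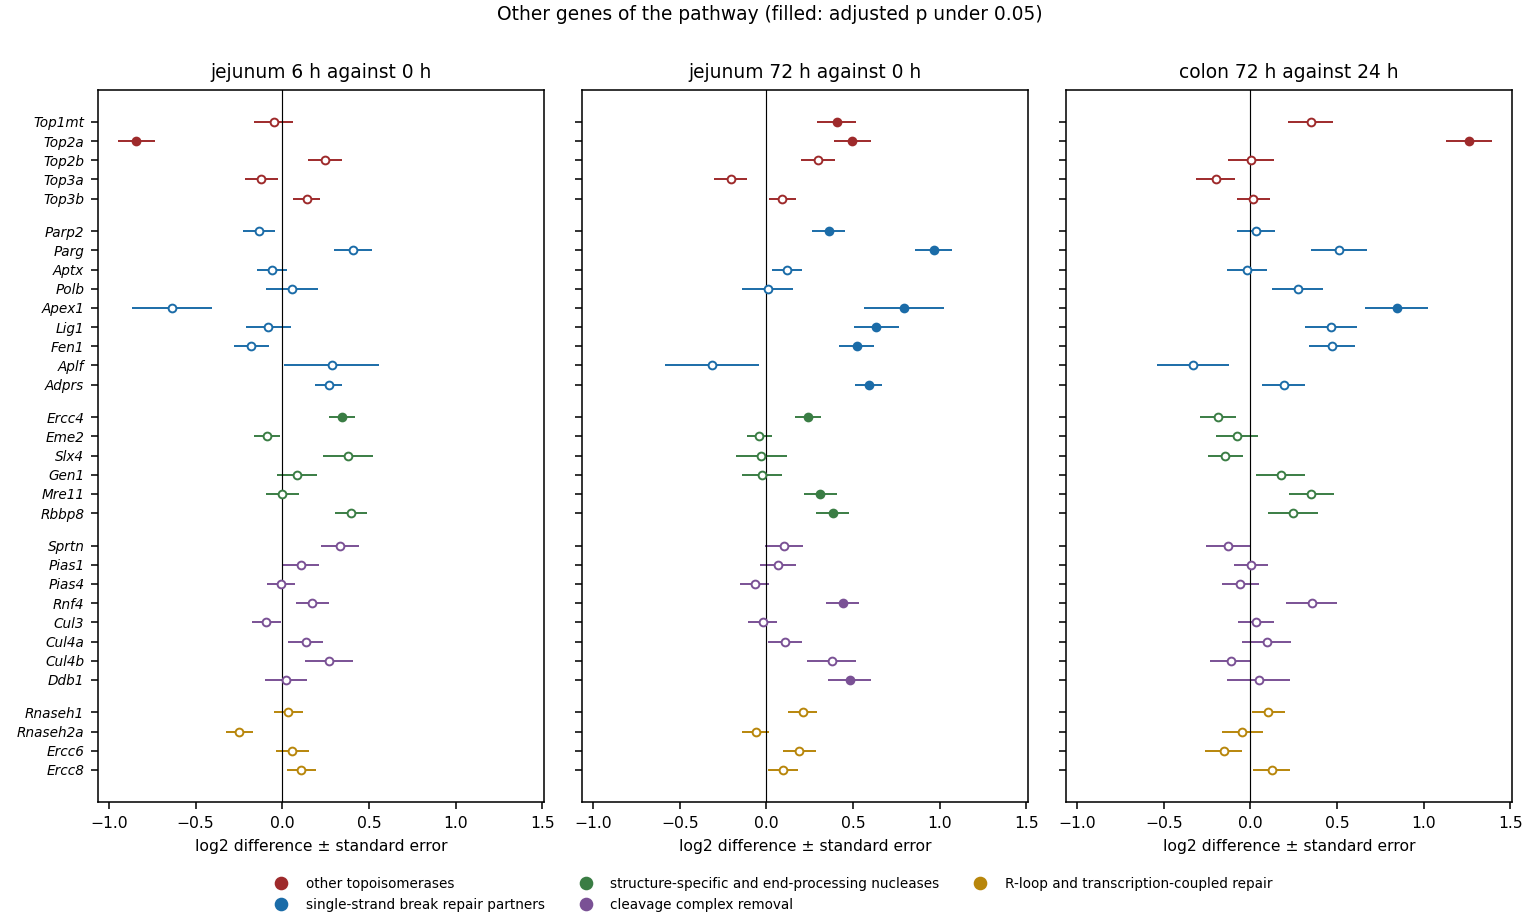
Log2 difference with its standard error (horizontal axis) for the 32 measured genes of the 5 lists, in jejunum at 6 h and 72 h against 0 h and in colon at 72 h against 24 h; filled points passed the test. Of the 13 filled points in the middle panel 6 belong to the partners of strand break repair.

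The genes whose course was most like that of Top1 (probe set 1399046_at) were Fam193a (r = 0.795), Phf12 (0.767), Rapgef2 (0.762), Rnf111 (0.761) and Shroom2 (0.749), by Pearson correlation of 15 group means taken relative to each tissue, among 9809 candidates. The other members correlated with Top1 between −0.51 (Mus81) and 0.277 (Ercc1), with Tdp1 at 0.189 and Parp1 at 0.166. These are descriptions over group means that share arrays.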

How the data were processed

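RNA of whole stomach, jejunum and colon was measured on 30 arrays, grouped by the sample titles. The authors deposited log2 signals from RMA, as the submitters' processing notes name it, with no version given. RMA normalizes arrays to a common distribution, so a change shared by most genes would be reduced. The 57 control probe sets were left out, which left 31042.

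The 5 times of each tissue were fitted with limma 3.58.1 in R 4.3.3 (two-sided tests, Benjamini-Hochberg adjustment over all probe sets). Differences between tissues came from 1 fit of all 30 arrays, without a term for the rats that the tissues share. Errors are standard errors of the fit, with 95% intervals. With 2 arrays against 2 an exact permutation test cannot go under 0.333. The fit was run on simulated arrays with known changes and noise independent between probe sets. The simulation held no array effects such as RNA quality, so it checks the fit's estimates and not the calls in these data. Members and lists were chosen with earlier results of these data known. Named were all 8 genes, up to 4 called genes per list by smallest adjusted p, 1 or 2 others that describe a list, and the 5 genes most like Top1. Alternatives were quantile normalization, a filter on dim probe sets, another variance model, a joint fit, array weights, the replicate block, other probe sets and leaving out arrays; leaving out the 5 arrays that stood apart was chosen after seeing the data.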

Additional observations from a re-analysis of the deposited data

Results flagged for a closer look

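Parp1 responded more in jejunum than in stomach at 72 h, by 0.60 log2 (limma adjusted p = 0.0304). The dimmer Lig3 probe set 1392807_at also had a larger response in jejunum than in stomach at 72 h, by 0.81 (adjusted p = 0.0145). From 0 to 72 h its group means went from 6.72 to 7.27 in jejunum and from 7.00 to 6.74 in stomach. Its response at 72 h differed over the 3 tissues (F = 12.8, adjusted p = 0.028). Adprs also responded differently over the 3 tissues at 72 h (F = 11.6, adjusted p = 0.0347). Each was picked out because a test of tissue difference in the response passed. Stomach 72 h replicate 1 and colon 72 h replicate 2 had raised acinar medians (13.5 and 12.3), and no values of these differences without them are given. For Parp1 this was only the comparison of jejunum with stomach. The test over the 3 tissues did not pass for Parp1 (F = 9.31, adjusted p = 0.0573). With 2 arrays a group no array could be tested for standing apart within its group.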

How the results depend on the processing

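Of 1662 values of single genes under an alternative, 1501 kept their direction and side of the threshold, 116 changed sign without being called either way, 18 gained and 27 lost a call, and 0 reversed a call. Of 340 counts of called members, 305 stayed within 1.5 times, which includes counts of 0 that stayed 0 in comparisons with few calls over the whole array. In jejunum at 6 h the count was 1 and became 2 with dim probe sets left out, 1 fit of all 30 arrays, array weights, the mean of a gene's probe sets or the 5 arrays left out, and 0 with trend and robust variances or the replicate block. In colon from 24 to 72 h it was 1 and became 3 with the other probe sets, and 0 with array weights or the 5 arrays left out. In colon over the 5 times it was 0 and became 1 with 1 fit of all 30 arrays, and the tissue difference at 72 h went from 0 to 1 with dim probe sets left out. Untreated jejunum against stomach went from 2 to 1 after quantile normalization, and untreated colon against stomach from 2 to 4 with the replicate block.

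Leaving out 1 array at a time gave 0 to 0 in jejunum at 6 h, 0 to 1 at 24 h, 1 to 2 at 72 h, 0 to 3 from 24 to 72 h and 1 to 3 over the 5 times, 0 to 1 in colon from 24 to 72 h, 0 to 1 for the tissue difference at 72 h, and 0 to 2, 1 to 2 and 1 to 2 for untreated jejunum against stomach, colon against stomach and jejunum against colon. Replicate numbers are shared by the tissues of a time, but the deviations of same-numbered arrays correlated between −0.215 and 0.503. Between the times of a tissue, which are different rats, they correlated between −0.582 and 0.434. The numbers were therefore not taken to pair arrays, and the replicate block is given as an alternative only. In the fits by tissue the block was 1 replicate term over the 5 times. With it Parp1 in jejunum at 6 h was not called (adjusted p = 0.0682). In the fit of all arrays the block was 1 term per time over the tissues. With that form untreated Top1 was called in jejunum against stomach (0.35, adjusted p = 0.0177) and in colon against stomach (0.30, adjusted p = 0.0367). The number of arrays and their signal limit what could be seen: in the dimmest genes, Tdp1 and Mus81, the signal was near the median of 7.03.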
